A study of Caenorhabditis elegans with 2 samples.

Results

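The genes described here encode the subunits of the Caenorhabditis elegans proteasome. They are the 33 protein-coding genes of the WBcel235 annotation named pas, pbs, rpt or rpn with a number, out of 19973 protein-coding genes on the nuclear chromosomes. They were chosen by gene name; whether each counts as bound was defined by the peaks described next, so those peaks are given as a description with no test. The assay was chromatin immunoprecipitation and sequencing (ChIP-seq) with an antibody against EFL-1. Whole L1 larvae, hermaphrodites of the wild-type strain N2, were grown at 26 °C. There was 1 group with 2 biological replicates, from separate biosamples, and no second condition. L1 is the first larval stage, and because whole animals were used, a site occupied in few cells cannot be told apart from a site weakly occupied in many.

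The proteasome is the protease that degrades proteins tagged with ubiquitin. Its barrel-shaped core particle is built of α rings, which gate the entry of substrates, and β rings, which carry the protease sites. The regulatory particle caps the core: its ATPase subunits unfold the substrate, and its non-ATPase subunits bind ubiquitin chains, remove them and hold the particle together. In C. elegans the transcription factor SKN-1 is known to drive proteasome genes when the proteasome is impaired. EFL-1 is an E2F family transcription factor of the worm, a subunit of the DREAM complex and best known for binding cell cycle genes.

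The IDR set held 4835 peaks on the build ce11. IDR, the irreproducible discovery rate, keeps peaks that rank alike in replicates. Relaxed lists contained 28817 peaks from replicate 1, 30000 from replicate 2 and another 30000 from pooled reads, and the IDR set equalled the top 4835 peaks of the pooled list. A peak score is the authors' own value for a peak, on a scale that is not stated, and is compared only within a list. Read depth is unknown from these lists. A gene counted as bound if an IDR summit fell from 500 bp upstream to 200 bp downstream of its annotated start, an interval called its promoter window here.

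EFL-1 peaks stood at most proteasome genes. Of the 33 genes, 26 (78.8%) were bound, against 15.2% of all protein-coding genes. The top 4835 peaks of each replicate taken alone gave 25 bound members in replicate 1, where 14.8% of all genes were bound, and 26 in replicate 2, where 15.3% were. The member lost in replicate 1 was rpn-6.1, whose summit there ranked 4880. None of the 33 genes lies on the X chromosome, and of autosomal genes 16.3% were bound. Among other large complexes taken by gene name, 67 of 78 rpl and rps genes of the ribosome (85.9%), 7 of 8 cct genes of the chaperonin (87.5%) and 10 of 20 vha genes of the vacuolar ATPase were bound. The order of the families depended on the definition of bound. In another count each summit was credited to the closest start alone. Then 66.7% of members, 56.4% of ribosome genes, 1 of 8 cct and 10 of 20 vha genes were bound. From 1000 bp upstream to 500 bp downstream, the values were 87.9%, 92.3%, 8 of 8 and 11 of 20. Of all genes, 17.2% and 19.1% were bound by these definitions. No test was made between these families.

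**Figure D1:**
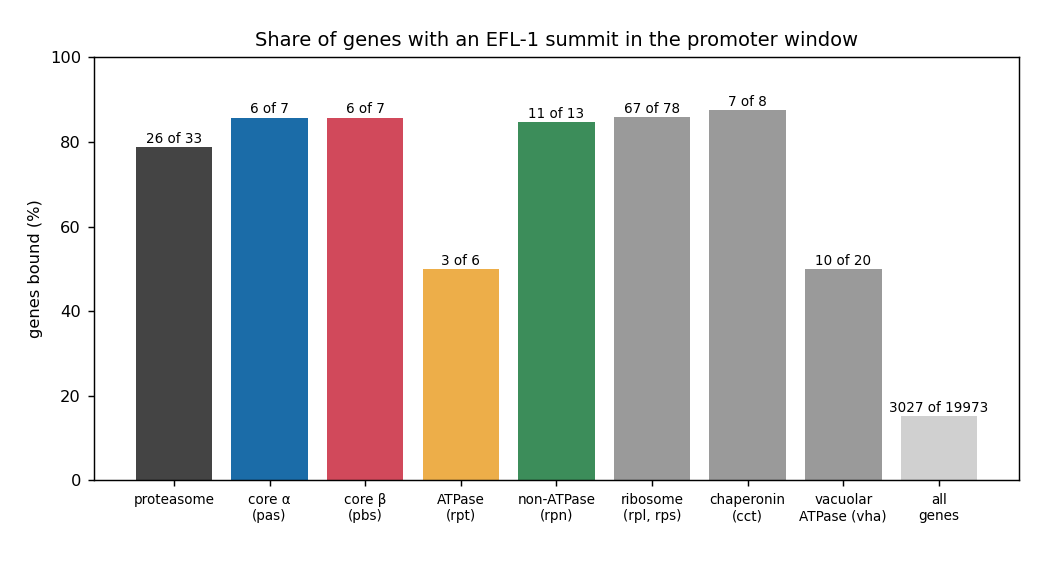
Share of genes with a summit of the IDR set from 500 bp upstream to 200 bp downstream of the start, in percent, with the counts above each bar. The proteasome as a whole (26 of 33), the core α, core β and non-ATPase genes, the ribosome and the chaperonin stand near 80% or above, the proteasome ATPase (3 of 6) and vacuolar ATPase (10 of 20) genes lower, and all genes at 15.2%.

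The α-ring genes were bound in 6 of 7 cases, or in 2 of 7 where a summit was credited to the closest start alone. The strongest peak was at pas-5, with a score of 542 in replicate 1 and 1359 in replicate 2, and its summit lay 320 bp upstream of the start. It ranked 285 in the IDR set with a score of 1900. At pas-4 the scores were 339 in replicate 1 and 647 in replicate 2, at rank 589 of the IDR set. These genes stood well above pas-3 (IDR score 371), pas-7 (233), pas-6 (186) and pas-2 (92.4). The weakest of them, pas-2, scored 33.4 in replicate 1 and 59.0 in replicate 2 and ranked 3693. The gene pas-1 was not bound.

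The β-ring genes were also bound in 6 of 7 cases. Every bound β member was in the higher-scoring 2417 peaks of the IDR set, as were 68.4% of all bound genes. In other eukaryotes the protease sites lie in the β subunits that correspond to PBS-1, PBS-2 and PBS-5. At pbs-1 the peak (IV:1709767-1710137) scored 584 in replicate 1 and 1150 in replicate 2, and at pbs-2 it scored 189 in replicate 1 and 475 in replicate 2. Both ranked in the upper part of the IDR set, at 324 and 857. By contrast, no list held a summit in the window of pbs-5. The structural β genes pbs-4, pbs-3, pbs-7 and pbs-6 followed with IDR scores of 527, 392, 372 and 207.

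Of the 6 ATPase genes, 3 were bound, and these had high scores. At rpt-1 the peak (V:11982344-11982692) scored 452 in replicate 1 and 1044 in replicate 2, with the summit 115 bp upstream of the start. At rpt-2 it scored 330 in replicate 1 and 545 in replicate 2, and at rpt-6 it scored 210 in replicate 1 and 348 in replicate 2. Their IDR ranks were 384, 657 and 1007, all in the higher-scoring part. The other members of the ATPase ring, rpt-3, rpt-4 and rpt-5, had no summit of any list in their windows. The lower count of this class was not tested against the other classes, and it was 5 of 6 with a wider window, described below.

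Non-ATPase genes held both the strongest and the weakest peak of the complex. RPN-11 is the deubiquitinase that cuts ubiquitin chains from the substrate. Its gene rpn-11 had the highest score of all 33 genes: the peak (II:4044356-4044811) scored 1311 in replicate 1 and 2353 in replicate 2, with the summit 27 bp upstream of the start. It ranked 97 in replicate 1, 100 in replicate 2 and 101 of 4835 in the IDR set, with an IDR score of 3654.

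The lid genes rpn-3 and rpn-5 followed. At rpn-3 (III:8447018-8447334) the scores were 626 in replicate 1 and 1032 in replicate 2, and at rpn-5 (II:4698310-4698644) they were 521 in replicate 1 and 1077 in replicate 2. Their IDR ranks, 346 and 356, were close to each other. The other lid genes were weaker, with IDR scores of 666 at rpn-9, 373 at rpn-12, 223 at rpn-7 and 152 at rpn-8, the partner of rpn-11 in the lid. The weakest bound member was rpn-6.1, which encodes a lid subunit known in C. elegans to raise proteasome activity in long-lived worms. It scored 22.6 in replicate 1 and 40.8 in replicate 2, and its IDR score of 63.7 ranked 4641, close to the lowest score in the set, 59.6. Its paralogue rpn-6.2 had no summit in the window in any list.

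The scaffold genes of the base, rpn-2 and rpn-1, had IDR scores of 532 and 169. The genes of the ubiquitin receptors differed among themselves. At rpn-13 the scores were 84.5 in replicate 1 and 169 in replicate 2, and the gene was bound at IDR rank 1860. At rpn-10 the pooled list held a relaxed summit scoring 14.9 at rank 17435, replicate 2 a summit scoring 13.3, and replicate 1 none, so the gene was not bound.

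**Figure D2:**
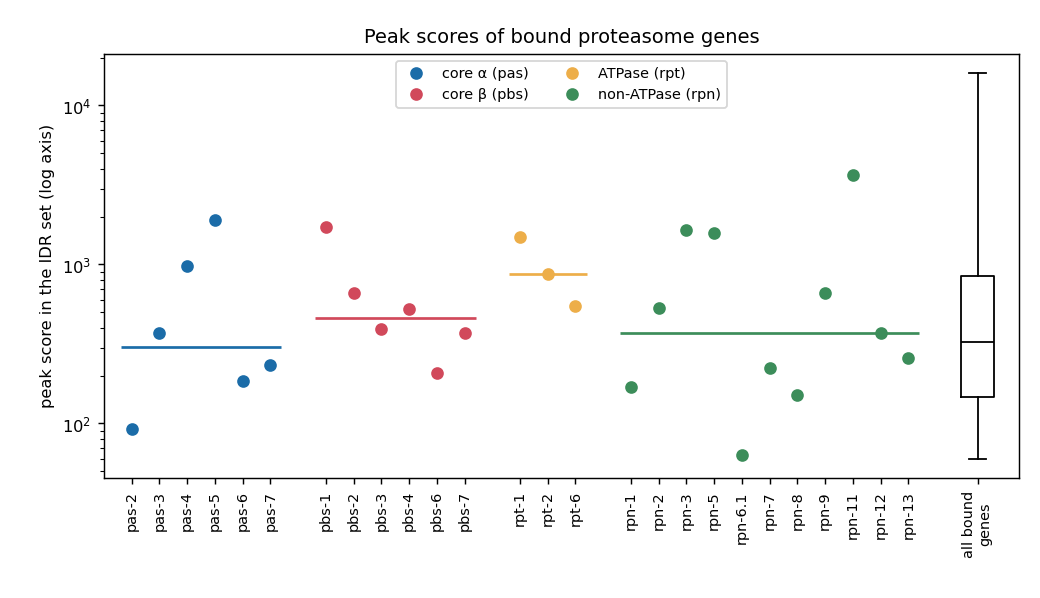
Peak score in the IDR set (log axis) of each of the 26 bound members, by class, with a line at the class median. The box at the right gives the quartiles and full range over all 3027 bound genes. Members run from 63.7 at rpn-6.1 to 3654 at rpn-11, within the range of all bound genes.

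As a group, bound members were of middling to high strength. Their median IDR score was 459 (median rank 1190), against 325 (median rank 1554) for all 3027 bound genes. Of the 33 members, 22 were bound by the higher-scoring 2417 peaks, as were 10.4% of all genes. The class medians were 302 for the α genes, 459 for the β genes, 875 for the 3 ATPase genes and 373 for the non-ATPase genes. The ranges of the classes overlapped, and no difference between them was tested. The top of the whole set was not reached, since the best member ranked 101.

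Both replicates ordered the bound members alike. Across the 26 members Spearman's rho of the scores was 0.971, and across the 3002 bound genes with a summit in both lists it was 0.966. Genes are not replicates, and the IDR set was drawn from the reads of both, so these values only describe the lists. The log2 ratio of the score in replicate 2 to that in replicate 1 had a median of 0.98 over members (SD 0.27, range 0.51 to 1.63) and 0.97 over all bound genes (SD 0.49). The largest ratios were at rpn-8 (1.63) and pas-6 (1.55), and the smallest was at rpn-2 (0.51). The summits of both replicates lay a median of 6 bp apart, within 20 bp in 24 of 26 members. Across all bound genes the median was 9 bp, with 2294 of 3002 within 20 bp. The exceptions among members were rpn-8, at 35 bp, and pas-2, at 34 bp.

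**Figure D3:**
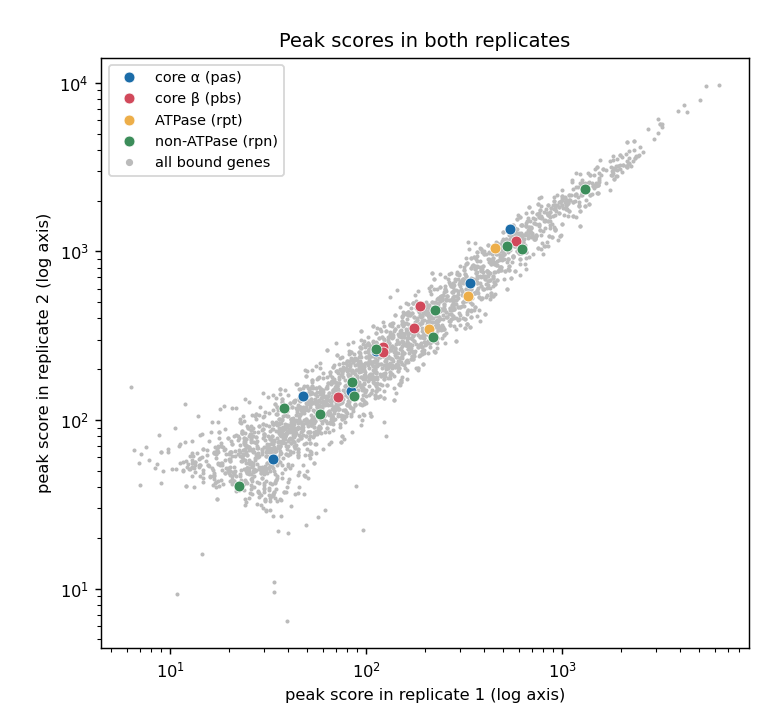
Peak scores in replicate 1 (horizontal) and replicate 2 (vertical), both on log axes, for all bound genes with a summit in both lists (grey) and for the 26 bound members coloured by class. Members follow the band of all bound genes, from rpn-6.1 (22.6 in replicate 1, 40.8 in replicate 2) to rpn-11 (1311 in replicate 1, 2353 in replicate 2).

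Every bound member had its summit upstream of the annotated start, in a window that reaches further upstream than downstream. Where transcription itself begins was not measured. The median position was 194 bp upstream, and positions ran from 396 bp upstream at rpn-7 to 27 bp upstream at rpn-11. Of all 3027 bound genes 93.7% had an upstream summit, with the median at 170 bp. Of the member summits, 23 lay between protein-coding genes. The others lay in the 5′ UTR of the divergent gene use-1 (the summit of pas-3), in the 3′ UTR of the upstream gene ulp-2 (that of pbs-3) and in an intron of F57B9.1 (that of rpn-6.1).

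Most member peaks stood between a proteasome gene and a divergent neighbour. For 18 of the 26 bound members (69.2%), the same summit also lay in the promoter window of a gene on the opposite strand, as it did for 41.8% of all bound genes. In 12 of these 18 pairs the start of the proteasome gene was the nearer of the pair. At rpn-5 the summit was 47 bp from its start and 247 bp from that of scc-1, which encodes a cohesin subunit. At rpn-3 it was 187 bp from its start and 257 bp from that of the chaperone gene hsp-110. The gene rpn-12 shared its summit with rad-23, which encodes a shuttle that carries ubiquitin-tagged proteins to the proteasome; the summit was 149 bp from rpn-12 and 246 bp from rad-23.

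In the other 6 pairs the neighbour was nearer. The summit of pas-4 lay 148 bp from its start and 129 bp from that of rpb-3, an RNA polymerase II subunit gene, and the summit of rpn-7 lay 396 bp from its start and 20 bp from that of F49C12.9. The same held for pas-2 with D1054.1, pas-3 with use-1, pas-7 with puf-12 and rpn-6.1 with F57B9.1. Which gene of a pair a peak serves cannot be told from its position. The remaining pairs joined pbs-1 with K08D12.3, pbs-2 with eif-6, pbs-6 with cids-1, pbs-7 with F39H11.1, rpt-2 with aps-1, rpn-1 with ribo-1, rpn-2 with C23G10.7, rpn-8 with mrps-6 and rpn-9 with T06D8.9. The summits of pas-5, pas-6, pbs-3, pbs-4, rpt-1, rpt-6, rpn-11 and rpn-13 lay in no other promoter window.

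**Figure D4:**
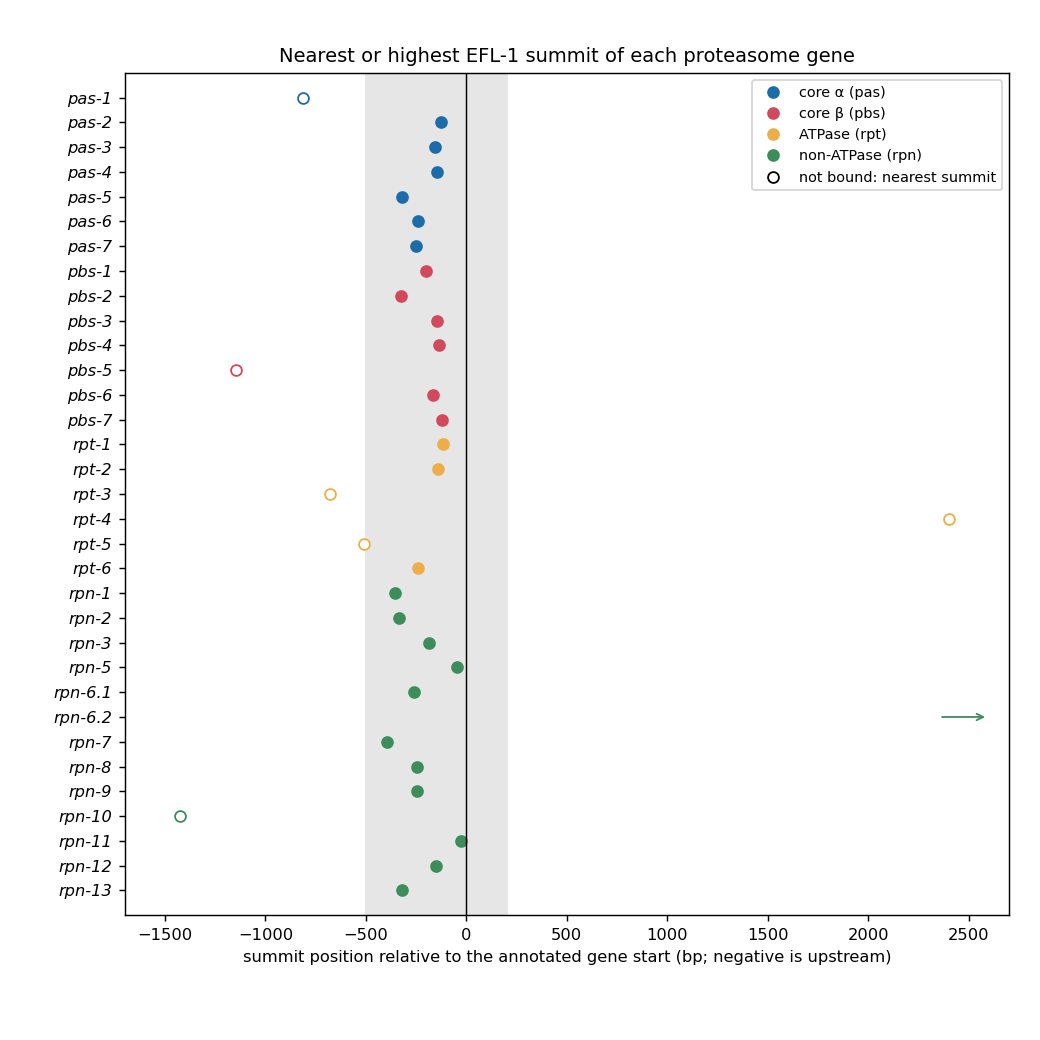
Position in bp of the EFL-1 summit relative to the annotated start of each of the 33 genes, with the promoter window in grey. Filled points are the highest-scoring summit in the window of the 26 bound genes, all upstream; open points are the nearest IDR summit of unbound genes, and the arrow marks rpn-6.2, whose nearest summit is 16.8 kb downstream.

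Of the 7 unbound members, 5 had an IDR summit within 1500 bp of the start. The share of other unbound genes with a summit this near was not computed, so no excess can be read from this count. For rpt-5 the nearest IDR summit (score 248) lay 510 bp upstream, 99 bp from the start of the divergent gene rad-8. For rpt-3 it lay 677 bp upstream (score 466), in the 3′ UTR of chtb-2. The nearest bound member on the other side of the limit was rpn-7, at 396 bp. For rpt-4 the summit (score 467) lay 2401 bp inside the gene and 153 bp upstream of the start of its shorter annotated transcript, and also 92 bp from the start of nfyc-1.

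Of the unbound members, pas-1, pbs-5, rpt-3, rpn-6.2 and rpn-10 start within 500 bp downstream of a gene on the same strand. C. elegans transcribes many such gene rows as operons, from a promoter at the head of the row. The nearest summit to pas-1 (score 185) was 812 bp upstream, 126 bp from the start of the preceding gene rpoa-12. That of rpn-10 (score 284) was 1423 bp upstream, 181 bp from the start of the preceding gene mrpl-9 and 175 bp from that of the divergent gene kin-3. That of pbs-5 (score 229) was 1146 bp upstream, in an intron of the preceding gene K05C4.2. In the window of pas-1 itself the relaxed summit scored 9.84 in replicate 1, 5.91 in replicate 2 and 19.7 in the pooled list, the highest pooled score of any unbound member. For rpn-6.2, which follows F59B2.15, the closest IDR summit was 16.8 kb away. Of the genes that precede these 5 members, rpoa-12 and mrpl-9 were bound, while K05C4.2, chtb-2 and F59B2.15 were not. The bound share over all genes in such an upstream position is not given here, so no excess or lack can be read from this.

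Counts therefore moved with the definition of a promoter. From 1000 bp upstream to 500 bp downstream, 29 of 33 members were bound and 19.1% of all genes; pas-1, rpt-3 and rpt-5 were added, which brought the ATPase genes to 5 of 6. With any annotated transcript start in place of the gene start, 27 members and 16.3% of all genes were bound, the added member being rpt-4. With any peak of the pooled list, 28 members and 32.7% of all genes had a summit in the window. Other definitions lowered the counts. From 300 bp upstream to 100 bp downstream, 20 members were bound, 7 of the 13 non-ATPase genes among them, and 11.7% of all genes. With each summit credited to the closest start alone, within 2000 bp, 22 members and 17.2% of all genes were bound.

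A gene that starts less than 500 bp past the end of its same-strand neighbour may be a downstream gene of an operon; 8 members (24.2%) met this definition, as did 18.1% of all genes. Of these 8 members 3 were bound (37.5%), against 11.1% of all such genes. The bound members were pbs-3, rpn-11 and rpn-13, which follow ulp-2, K07D4.2 and C56G2.9. Of these upstream genes ulp-2 was bound, with no share over all upstream genes to set beside it. Without such genes, 23 of 25 members were bound, against 16.0% of all genes, the exceptions being rpt-4 and rpt-5. Whether the members in question are transcribed from the upstream promoter was not tested.

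The sequences at the summits were searched on both strands, 100 bp to each side, for 3 motifs. The E2F consensus is TTNNCGC with each N a C or a G. The cell cycle genes homology region (CHR), bound by another DREAM subunit, is TTNGAA with N a C or a T. The SKN-1 site is NNTNTCAT with the first and second N an A or a T and the last an A or a G. Some regions that carry E2F or SKN-1 matches and are free of annotated exons are shown, to show the matches in their surroundings. They are written on the strand of the gene, 5′ to 3′. Of the regions shown, 3 (pbs-1, pas-6 and rpn-2) hold both motifs. The peaks of pas-3, pas-5, rpt-2, rpn-1 and rpn-8 also held matches and are not shown. Capitals mark the matches, those of 7 letters being E2F and those of 8 letters SKN-1; the reference sequence is RefSeq's WBcel235.
rpn-11 (chrII:4044561-4044623, minus strand): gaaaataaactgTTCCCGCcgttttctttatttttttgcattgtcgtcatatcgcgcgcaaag
pbs-1 (chrIV:1709871-1709958, minus strand): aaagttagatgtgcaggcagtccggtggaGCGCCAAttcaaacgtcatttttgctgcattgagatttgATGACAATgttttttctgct
pas-6 (chrV:5584520-5584612, minus strand): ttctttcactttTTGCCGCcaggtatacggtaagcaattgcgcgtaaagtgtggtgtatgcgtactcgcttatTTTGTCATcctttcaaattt
rpn-2 (chrIII:6198808-6198895, plus strand): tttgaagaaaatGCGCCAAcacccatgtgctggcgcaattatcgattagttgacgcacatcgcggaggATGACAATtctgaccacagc
rpt-6 (chrIII:12370202-12370279, plus strand): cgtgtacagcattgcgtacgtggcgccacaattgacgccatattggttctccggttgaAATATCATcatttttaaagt
rpn-12 (chrII:11652963-11653007, plus strand): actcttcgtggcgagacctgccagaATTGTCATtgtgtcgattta
pas-2 (chrV:10770228-10770276, plus strand): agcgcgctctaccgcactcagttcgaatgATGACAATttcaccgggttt

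The E2F consensus was present at few proteasome peaks. It was found at 7 of 26 (26.9%), namely pas-3, pas-5, pas-6, pbs-1, rpn-2, rpn-8 and rpn-11, and at 19.9% of the 2373 peaks that gave bound genes their values. In windows of the same length centred 194 bp upstream of the start of every protein-coding gene the share was 6.94%. Among the 33 members, bound or not, 7 such windows (21.2%) held it. The 194 bp is the median position of the bound members' own summits. For most bound members these windows therefore overlap the summit windows already counted, for each motif. At member peaks the match lay 35 bp from the summit at rpn-11, 20 bp at pbs-1 and 12 bp at pas-6. The strong peaks of rpn-3, rpn-5 and rpt-1 held no such letters in this window.

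SKN-1 matches were found at 10 of 26 member peaks (38.5%). Among all peaks of bound genes the share was 7.08%, and in the windows upstream of all genes it was 11.6%. The 10 were at pas-2, pas-6, pbs-1, rpt-2, rpt-6, rpn-1, rpn-2, rpn-8, rpn-11 and rpn-12, so that 5 of the 7 peaks with the E2F consensus held both. At rpn-11 the SKN-1 match lay 54 bp from the summit, downstream of the annotated start and outside the stretch printed above. The match lay 17 bp from the summit at rpn-12, 19 bp at rpt-2 and 21 bp at pas-2, and 59 bp at pbs-1. In windows placed 194 bp upstream of all 33 members, bound or not, 10 (30.3%) held a match. Most of these windows overlap summit windows already counted, so this is no separate count. A match is a run of letters, and SKN-1 itself was not assayed.

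CHR matches were found at 22 of 26 member peaks (84.6%), against 52.4% of all peaks of bound genes and 56.4% of the windows upstream of all genes. In windows placed 194 bp upstream of all 33 members, bound or not, most of which overlap the summit windows, 24 (72.7%) held a match. The member peaks without a match were those of pas-3, pbs-3, rpn-6.1 and rpn-13. The same motifs read backwards without complementing have the same base composition. So read, the SKN-1 site was at 0 of 26 member peaks and 3.12% of all peaks of bound genes. Within 150 bp it was at 3 of 26 (11.5%) and 6.70%. In the windows placed upstream of all 33 members, 100 bp to each side, it was at 5 (15.2%), against 8.23% for all genes. Read backwards, the CHR was at 23.1% of member peaks and 22.1% of all peaks of bound genes, and the E2F consensus at 23.1% and 12.3%. As spelled, the E2F consensus was at 26.9% of member peaks and 19.9% of all peaks of bound genes. Within 50 bp it was at 23.1% of member peaks as spelled and 15.4% read backwards. In the windows placed upstream of all 33 members, 100 bp to each side, the shares were 21.2% as spelled and 15.2% backwards. For all genes they were 6.94% and 3.70%. The CHR is short and rich in A and T, and the member windows had a median GC content of 36.5%, against 39.8% for all peaks of bound genes; the part of base composition in the motif shares was not tested.

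**Figure D5:**
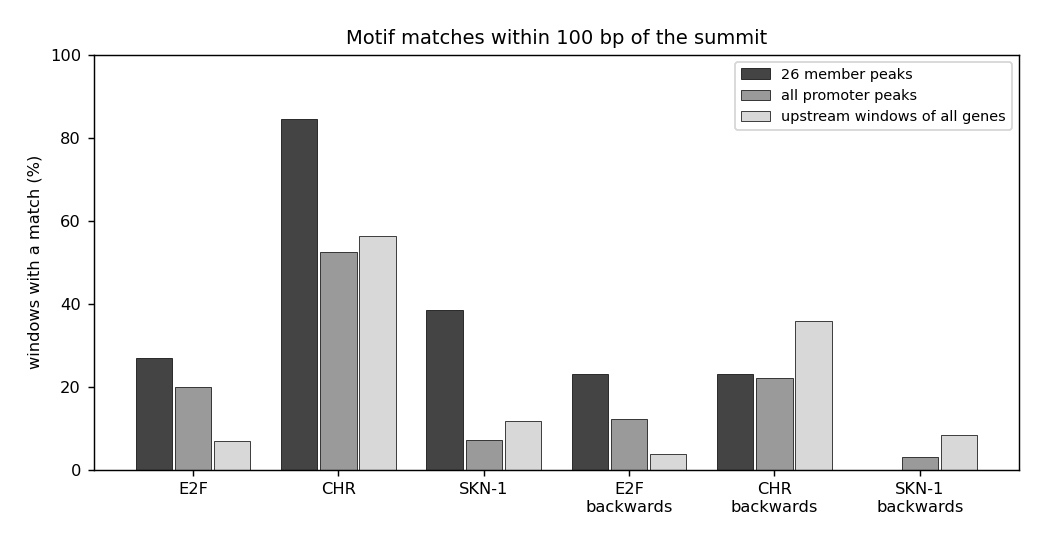
Share of windows reaching 100 bp to each side with a match to each motif, in percent, for the 26 member peaks, the 2373 peaks of all bound genes and windows centred 194 bp upstream of all 19973 genes. SKN-1 matches stand at 38.5% of member peaks against 7.08% of all promoter peaks, and at 0% of member peaks when read backwards. In windows centred 194 bp upstream of the 33 members (not drawn), 30.3% held a match and 15.2% a backward match. Most of these windows overlap those of the member peaks.

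Of 23 genes that work with the proteasome but carry other names, 8 were bound, against the 15.2% of all genes given above. Of the 7 genes of associated proteins, 3 were bound: the ECM29-like gene ecps-1 (IDR score 973), and the deubiquitinase genes usp-14 (469) and ubh-4 (304). The genes dss-1, psme-3, ecps-2 and psmd-9 were not. Of the 4 genes of ubiquitin and its activation, ubl-1 (1055) and ubq-2 (996), which encode ubiquitin or a ubiquitin-like protein fused to a ribosomal protein, were bound. The polyubiquitin gene ubq-1 and the activating enzyme gene uba-1 were not, with relaxed pooled scores of 12.5 and 21.8.

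Of the 7 genes of substrate delivery, 2 were bound. These were rad-23, which shares the summit of rpn-12, and the segregase gene cdc-48.1, at rank 2 of the IDR set (5421 in replicate 1 and 9561 in replicate 2). Its paralogue cdc-48.2 was not bound (relaxed pooled score 16.6), nor were the cofactor genes ufd-1, npl-4.1 and npl-4.2 or the shuttle gene ubql-1. Of the 5 genes tied to the control of proteasome gene transcription by SKN-1, 1 was bound, sel-1 (139), beside 15.2% of all genes. The gene of SKN-1 itself had no summit of any list in its window, nor had png-1, while ddi-1 and sel-11 had relaxed pooled scores of 27.4 and 23.9.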

How the data were processed

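EFL-1 ChIP-seq peak lists of 2 replicates of whole L1 larvae were used. Library fragments spanned 150 to 350 bp, per the labels. Column 7 of each list is a peak score deposited by the authors. Relaxed lists were called per replicate and on the pooled reads, per the text deposited with the samples. Which aligner and peak caller were run is not given in the sources used here. Signal tracks, the control library and lists on ce10 were not analysed here.

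Summits (start plus offset, written 1-based) were matched to Ensembl release 115 gene starts on WBcel235, the assembly of ce11, with Python 3.11.15, numpy 2.4.6 and pandas 2.3.3. The highest-scoring summit in a window gave a gene its values. Sequences came from RefSeq. The calling of planted summits was tested on simulated data.

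The members and lists were chosen with earlier results of these data known, and no test was made. Every member is named; of other genes, those at a member's summit, those directly upstream of a possible downstream operon member and those of the pathway list are named, and genes at the nearest summit of an unbound member were added after their values were seen. Backward motifs, structural RNA genes, GC content and upstream windows of members were also added after seeing the data. Alternatives were single replicates, score limits, windows, transcript starts, nearest starts, operon position and motif widths.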

Additional observations from a re-analysis of the deposited data

How the results depend on the processing

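Of 50 alternative values for the counts, the motif count, the median position and the median rank, 46 kept within the limits set (1.5 times for a count, the spread between replicates for other values). The exceptions were 3 counts and a rank. When a summit was credited to the closest start alone, within 2000 bp, 2 of 7 α genes were bound, against 6 (22 of 33 members and 17.2% of all genes); neighbours' starts were nearer at pas-2, pas-3, pas-4 and pas-7. With the wider window 5 ATPase genes were bound, against 3. With the narrower window, 300 bp upstream to 100 bp downstream, 7 non-ATPase genes were bound, against 11, since summits beyond 300 bp were left out; 20 of 33 members and 11.7% of all genes were then bound. The median rank of bound members was 1210 to 1272 in the replicates taken singly. Of 52 summit positions of single members in the replicates taken singly, 24 were labelled as moved by the limit set and 28 were not. The limit could be smaller than the distance between the summits of the 2 replicates. Where the IDR summit equals that of a single replicate, any shift in the other equals that distance. At rpt-1, pbs-1 and pas-5 a distance of 1 bp was enough for the label. The count of 24 therefore cannot show whether positions were unstable. At rpn-6.1 the summit lay 259 bp upstream in the IDR set, against 210 bp upstream in replicate 1 and 227 bp upstream in replicate 2, and at pas-2 it lay 128 bp upstream in the IDR set and 162 bp upstream in replicate 1. No position changed sides of the start. Read depth is unknown, so how far it limits the unbound calls was not tested.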

Other observations

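None of the 26 member summits lay within 200 bp of a tRNA, rRNA, snRNA or snoRNA gene, as 2.23% of all peaks of bound genes did. The closest was that of pas-5, 587 bp from a snoRNA gene. Motif counts at members moved little between window widths for the E2F consensus, with 6 of 26 within 50 bp (23.1%, against 15.5% of all peaks of bound genes) and 7 within 150 bp (26.9%, against 21.6%). SKN-1 matches were at 6 of 26 member peaks within 50 bp (23.1%, against 2.53% of all peaks of bound genes) and at 11 within 150 bp (42.3%, against 13.1%). CHR matches were at 11 within 50 bp (42.3%, against 30.9%) and 24 within 150 bp (92.3%, against 67.6%). Read backwards, the SKN-1 site was at 0 of 26 member peaks within 50 bp (against 1.05%) and at 3 within 150 bp (11.5%, against 6.70%).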
